A study of Mus musculus with 12 samples.

Results

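The genes described here were taken by name from families of RNA-binding proteins, many of which help decide which exons are kept when pre-mRNA is spliced. They are the genes whose mouse symbol begins with Srsf, Hnrnp, Mbnl, Celf or Rbfox, or with Rbm followed by a digit, with 2 pseudogenes left out. This rule took 83 of the 27179 genes counted, 11 *Srsf*, 20 *Hnrnp*, 3 *Mbnl*, 6 *Celf*, 3 *Rbfox* and 40 *Rbm* genes. They are called splicing regulators below, though a role in exon choice was not checked for each. Of the 83, 81 code for protein and 2, *Rbm3os* and *Rbm46os*, are long noncoding RNA genes. They were measured by RNA-seq of poly(A)+ RNA in tibialis anterior (TA) muscles of male wild-type C57BL/6N mice, which had been obtained at 6 to 8 weeks of age. Each of 6 mice received 10 μg of empty pcDNA3 plasmid in 1 leg (Control) and, in the opposite leg, 10 μg of plasmid carrying full-length human *FRAIL1*, a long noncoding RNA, behind the cytomegalovirus promoter (*FRAIL1*). The plasmids were introduced by injection and electroporation, and both muscles were taken on day 7. Transfection reaches some of the fibers of a muscle, the counts are sums over all its cells, and *FRAIL1* itself is not among the mouse genes counted. The question was whether mRNAs of these splicing regulators differ between muscles that received *FRAIL1* and those that received the empty plasmid.

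SR proteins (*Srsf* genes) generally promote the use of exons by binding enhancers in them, whereas hnRNP proteins coat nascent transcripts and often act against exon use. In muscle a smaller set has specialised roles. MBNL proteins drive the change from fetal to adult splice forms and are sequestered by repeat RNA in myotonic dystrophy, CELF proteins act against MBNL on many of the same exons, and RBFOX proteins bind a short motif beside exons of genes for contraction and excitation. RBM20 controls the splicing of titin, and RBM24 is a muscle-enriched factor that promotes the inclusion of muscle exons.

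Promoter windows are shown for the regulators that passed the test once the pairing of legs was taken into account, *Mbnl1*, *Rbfox1* and *Hnrnpdl*. The fourth, *Rbm20*, did not match the table. Each window runs from 250 bases before an annotated transcription start to 50 bases after it, in the RefSeq annotation of GRCm38.p6 (mm10), and is written 5′ to 3′ on the strand of the gene. Capitals mark the motifs GGGCGG (a GC box), TATAAA and CAGCTG (an E-box of the type bound by myogenic factors) on either strand, and neighbouring matches may overlap. The 2 windows of *Mbnl1*, on the plus strand at chr3:60472580-60472879 and chr3:60500929-60501228, are unlike each other. The first holds 2 CpG dinucleotides and 2 overlapping TATAAA matches, the second 41 CpG and 4 GGGCGG. The window of *Hnrnpdl*, on the minus strand at chr5:100039173-100039472, holds 42 CpG and 3 GGGCGG. Of 2 windows of *Rbfox1* the one shown, on the plus strand at chr16:7069585-7069884, holds 7 CpG and 1 CAGCTG, and the other, at chr16:5884543-5884842, holds 3 CpG and none of the motifs. Which of these starts the muscles used was not measured.
Mbnl1 (first start): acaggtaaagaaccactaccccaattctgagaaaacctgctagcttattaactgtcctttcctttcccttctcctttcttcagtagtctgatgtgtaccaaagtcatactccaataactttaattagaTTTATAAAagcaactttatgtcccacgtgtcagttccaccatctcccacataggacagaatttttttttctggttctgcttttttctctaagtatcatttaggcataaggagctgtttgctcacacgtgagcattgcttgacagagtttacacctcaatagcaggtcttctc
Mbnl1 (second start): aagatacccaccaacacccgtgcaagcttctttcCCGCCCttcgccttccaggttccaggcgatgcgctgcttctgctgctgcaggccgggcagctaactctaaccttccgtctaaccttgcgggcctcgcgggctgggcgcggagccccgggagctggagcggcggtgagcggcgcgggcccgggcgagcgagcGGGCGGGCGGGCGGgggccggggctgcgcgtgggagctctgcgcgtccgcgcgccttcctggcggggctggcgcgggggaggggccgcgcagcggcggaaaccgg
Rbfox1: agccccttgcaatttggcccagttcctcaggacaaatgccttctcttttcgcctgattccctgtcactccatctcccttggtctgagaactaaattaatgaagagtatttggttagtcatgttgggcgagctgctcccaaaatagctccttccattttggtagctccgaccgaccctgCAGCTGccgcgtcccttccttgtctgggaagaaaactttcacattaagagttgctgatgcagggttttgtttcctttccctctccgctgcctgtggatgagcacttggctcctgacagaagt
Hnrnpdl: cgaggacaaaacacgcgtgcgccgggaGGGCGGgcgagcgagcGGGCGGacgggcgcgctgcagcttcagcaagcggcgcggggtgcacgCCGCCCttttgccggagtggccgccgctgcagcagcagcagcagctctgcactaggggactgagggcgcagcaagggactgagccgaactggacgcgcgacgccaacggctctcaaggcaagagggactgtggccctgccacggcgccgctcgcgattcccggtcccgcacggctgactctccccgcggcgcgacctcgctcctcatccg
GGGCGG stood in 58.8% of the 97 windows of tested splicing regulators (64 genes), in 59.3% of the 14996 windows of all genes tested and in 35.7% of the 32851 windows of the whole table. The median window of a splicing regulator had 22 CpG, against 19 among genes tested and 7 in the table. TATAAA was found in 13.4% of the regulators' windows and 7.79% of those of genes tested (13.6% of the table), and CAGCTG in 12.4% and 16.0% (16.3% of the table).

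Of the 83 genes 75 had enough counts to be tested and 58 had a mean of 10 or more CPM (counts of a gene scaled to library size). Libraries held 45018389 to 59309210 counts in Control and 44848322 to 60527385 in *FRAIL1* muscles. On the first principal component of all genes tested (32.4% of the variance) *FRAIL1* muscle 5 stood apart at 59.5, with the other *FRAIL1* muscles between -5.92 and 25.8 and the Control muscles between -25.9 and -11.0, and results that rest on it are given without it. Both legs are numbered 1 to 6, and muscles of 1 number were read as a pair from 1 mouse. Marker genes of several cell types moved with *FRAIL1*. In edgeR without a term for the mouse, 6 of 9 markers of satellite cells and regenerating fibers passed as higher (adjusted p under 0.05). All 9 had a log2 fold change above 0, and they summed to 183 to 236 CPM in Control and 363 to 1629.8 CPM in *FRAIL1* muscles. For denervation 6 of 9 markers passed as higher and 8 were above 0 (92.6 to 139 CPM against 200.1 to 349 CPM). Of 11 fibroblast markers 2 passed as higher and 10 were above 0 (1326 to 2511 CPM against 2594 to 6761 CPM). Of 14 macrophage markers 1 passed as higher and 13 were above 0, 11 with an unadjusted p under 0.05 (273 to 428 CPM against 342 to 871 CPM). Of 14 myofiber markers 2 passed as lower and 12 were below 0, 9 with an unadjusted p under 0.05 (212646 to 247119 CPM against 159042 to 225638 CPM). Of 9 endothelial markers 2 passed as lower and all 9 were below 0 (510.3 to 606 CPM against 415 to 517 CPM). Without the mouse as block, none of 11 lymphocyte or 8 Schwann cell markers passed the test, summing to 17.9 to 31.5 CPM against 14.3 to 33.8 CPM and to 91.2 to 161 CPM against 77.6 to 118 CPM, and in edgeR 0 and 3 of those tested had an unadjusted p under 0.05. With the mouse as block the counts of markers that passed were different. Then 9 satellite cell and regeneration, 5 denervation, 0 fibroblast and 9 macrophage markers passed as higher. As lower, 4 myofiber and 4 endothelial markers passed. Of the lymphocyte markers 1 passed, as higher, and of the Schwann cell markers 1 passed as higher and 1 as lower. By DESeq2 without the block 4 fibroblast, 8 macrophage, 0 lymphocyte and 3 Schwann cell markers passed. No marker of these lists was at 0 in all muscles. The part of these shifts in the differences below was not tested. In bulk muscle, fewer cells of a type and less RNA per cell cannot be told apart.

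The mRNAs of splicing regulators differed little between the groups. Without a term for the mouse, 0 of 75 passed edgeR's quasi-likelihood test at an adjusted p of 0.05, whereas 6.28% of all 15502 genes tested did (4.43% higher and 1.85% lower). At an unadjusted p under 0.05 there were 14 of them (18.7%), 11 lower and 3 higher in *FRAIL1* muscles, against 27.7% of all genes. By DESeq2 without the mouse 6 passed (8%, against 14.1% of all genes) and by limma voom 3 (4%, against 11.8%). Once edgeR blocked on the mouse, 4 passed, *Rbm20*, *Mbnl1*, *Rbfox1* and *Hnrnpdl*, and all 4 were lower in *FRAIL1* muscles. They made up 5.33% of the 75, and with this block 14.1% of all genes passed, 6.62% lower and 7.48% higher.

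Most of the differences were also narrowly bounded. The median log2 fold change (*FRAIL1* over Control) of the 75 was 0.011 and that of all genes tested 0.010, and the median size of the change, whichever way, was 0.076 against 0.156. Among genes with a mean of 10 CPM or more it was 0.069 for 58 splicing regulators and 0.121 for 7876 genes. For 56 of the 75 (74.7%) the 95% confidence interval of the fold change lay within 1.3-fold in both directions, against 43.7% of all genes. It lay within 1.5-fold for 71 (64.5% of all genes), and the exceptions, *Celf5*, *Mbnl3*, *Rbfox3* and *Rbm47*, all had mean levels under 3 CPM. These shares were not matched for level. A mean of 10 CPM or more was reached by 58 of the 75, against 7876 of the 15502 genes tested. The median SE was 0.072 for splicing regulators and 0.114 for all genes.

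**Figure D1:**
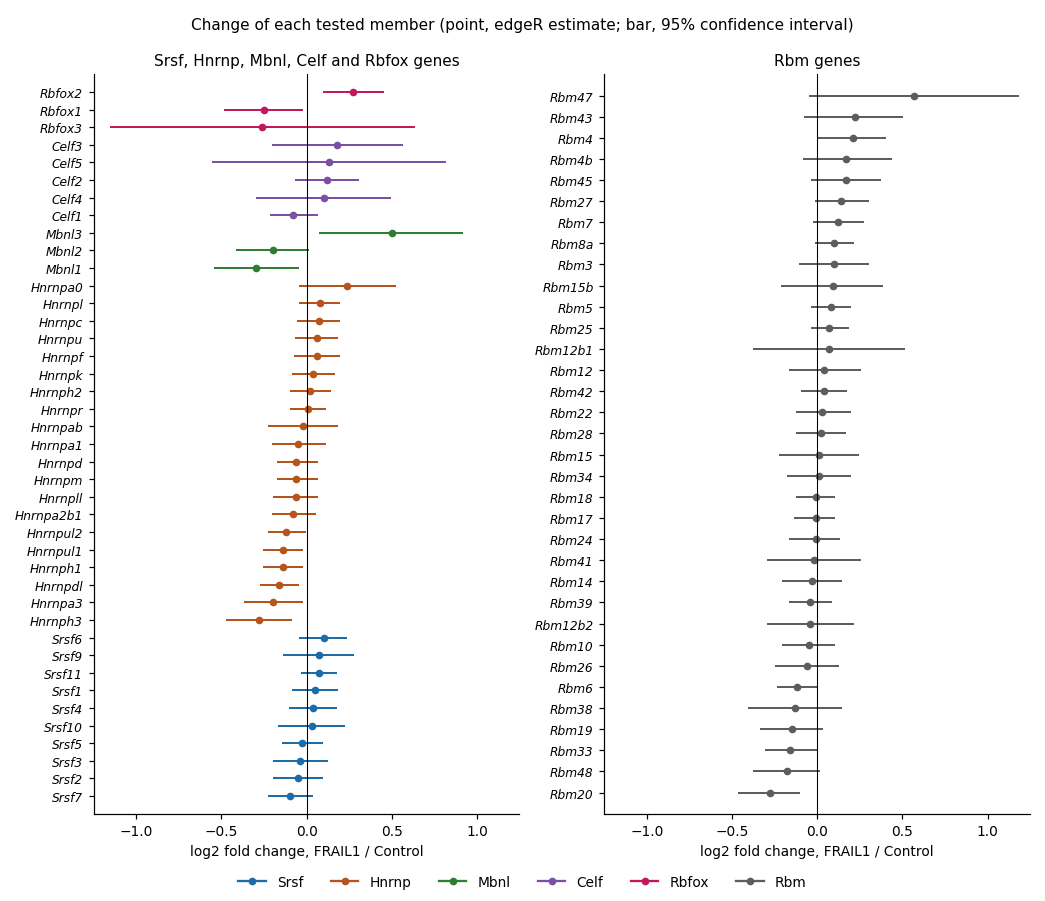
Log2 fold change (*FRAIL1* over Control) of the 75 tested splicing regulators on the horizontal axis, 1 gene per line, coloured by family, with points for edgeR's estimates and bars for 95% confidence intervals (n = 6 muscles per group). Estimates run from -0.30 for *Mbnl1* to 0.57 for *Rbm47*, and the 10 *Srsf* genes all lie between -0.10 and 0.10.

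The MBNL genes differed in direction. *Mbnl1*, the main MBNL protein of adult muscle, had levels from 173 to 264 CPM in Control muscles (median 249.95) and from 156 to 223 CPM in *FRAIL1* muscles (median 204). The groups overlapped because Control muscle 5 was low, but within every one of the 6 pairs the *FRAIL1* muscle was lower, by 0.13 to 0.70 on the log2 scale. The mean was 239 ± 34.2 CPM (SD, n = 6) against 195 ± 30.6 CPM, a log2 fold change of -0.30 ± 0.116 (SE; 95% interval -0.54 to -0.05). Its adjusted p was 0.118 in edgeR without the mouse and 0.0324 with it, and 0.0378 when both muscles numbered 5 were left out (log2 fold change -0.32). Without these muscles *Mbnl1* and *Hnrnpdl* passed, 2 of 75, against 5.61% of all genes. *Mbnl2*, its close relative, ranged from 126 to 201 CPM in Control (median 158) and from 129 to 160.2 CPM in *FRAIL1* muscles (median 136), 4 of the 6 pairs being lower. Its log2 fold change was -0.20 (95% interval -0.41 to 0.01), with an adjusted p of 0.202 and 0.167 with the block. *Mbnl3*, associated with muscle precursor cells and scarcely expressed here, was at 0.517 to 1.02 CPM in Control and 0.930 to 1.17 CPM in *FRAIL1* muscles, higher in 6 of 6 pairs. Its log2 fold change of 0.50 (0.08 to 0.91) had an adjusted p of 0.119 and 0.123 with the block. The regeneration markers given above were higher in the same muscles, and their part in this was not tested.

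The RBFOX genes also differed from each other. *Rbfox1*, the predominant RBFOX protein of skeletal muscle, was at 198 to 284 CPM in Control (median 257) and 163 to 245 CPM in *FRAIL1* muscles (median 213). It was lower in all 6 pairs, by 0.04 to 0.59 on the log2 scale, while the groups overlapped. Its log2 fold change was -0.25 ± 0.104 (SE; -0.48 to -0.03), with an adjusted p of 0.131 without and 0.0388 with the block. *Rbfox2*, the broadly expressed member, went the other way, from 91.4 to 108 CPM in Control (median 103) to 105 to 158 CPM in *FRAIL1* muscles (median 121). All 6 pairs were higher, by 0.04 to 0.79, and the largest of these values came from *FRAIL1* muscle 5. The log2 fold change was 0.27 ± 0.0837 (SE; 0.10 to 0.45), with an adjusted p of 0.0599, 0.0661 with the block and 0.0307 in DESeq2. Without both muscles numbered 5 it was 0.16, with an adjusted p of 0.0934, or 0.0366 with the block. *Rbfox3*, a neuronal gene, was near 1 CPM in both groups, with a log2 fold change of -0.26 and an interval from -1.15 to 0.63.

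The balance between members of these families is shown by ratios within each muscle, which do not depend on scaling. The log2 ratio of *Rbfox1* to *Rbfox2* was 1.29 ± 0.119 (SD, n = 6) in Control and 0.77 ± 0.415 in *FRAIL1* muscles, lower in all 6 pairs, with *FRAIL1* muscle 5 at 0.05. That of *Mbnl1* to *Mbnl2* was 0.56 ± 0.123 and 0.45 ± 0.154, lower in all 6 pairs though the groups overlapped. That of *Mbnl1* to *Celf1*, which often act in opposite directions on an exon, was 1.46 ± 0.183 and 1.24 ± 0.227, again lower in 6 of 6. These ratios were not tested, since they combine values already described.

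The CELF genes were close to level. *Celf1*, raised in myotonic dystrophy, had 77.3 to 94.6 CPM in Control and 76.9 to 88.3 CPM in *FRAIL1* muscles, 5 of the 6 pairs being lower. Its log2 fold change of -0.08 had an interval from -0.21 to 0.06 and an adjusted p of 0.445. *Celf2* lay at 39.9 to 55.4 CPM and 48.7 to 65.8 CPM, a log2 fold change of 0.12 (-0.06 to 0.30) that was 0.00 without both muscles numbered 5. *Celf3*, *Celf4* and *Celf5*, known from the nervous system, had means between 0.812 and 2.13 CPM and log2 fold changes between 0.10 and 0.18, with adjusted p from 0.546 to 0.827. None of the 5 tested *Celf* genes had an unadjusted p under 0.05.

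*Rbm20* came nearest to the threshold of all splicing regulators. This regulator of titin splicing was at 72.9 to 98.04 CPM in Control (median 78.1) and 59.1 to 76.6 CPM in *FRAIL1* muscles (median 66.3), lower in 6 of 6 pairs by 0.13 to 0.58 on the log2 scale. The mean was 81.3 ± 9.79 CPM (SD, n = 6) in Control and 66.8 ± 5.92 CPM in *FRAIL1* muscles. In edgeR with the mouse as block the adjusted p was 0.0235. Without the block the log2 fold change was -0.28 ± 0.0811 (SE; -0.46 to -0.11), and the adjusted p was 0.0501. It was 0.0166 in DESeq2 and 0.0369 in limma voom, 0.0852 without both muscles numbered 5 and, with the block added to that, 0.0189.

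The muscle-enriched *Rbm24* and the genes *Rbm38*, *Rbm39* and *Rbm3* gave no such pattern. *Rbm24* was at 188 to 215 CPM in Control (median 194) and 178 to 231 CPM in *FRAIL1* muscles (median 190.5), with a log2 fold change of -0.01 bounded by -0.16 and 0.13 (adjusted p = 0.915). Muscle 5 was its highest *FRAIL1* value, and without both muscles numbered 5 the log2 fold change was -0.08. *Rbm38*, a p53 target that acts in myogenic differentiation, was at 159 to 199 CPM and 105 to 216 CPM, and both the lowest value, in *FRAIL1* muscle 5, and the highest, in muscle 3, belonged to the *FRAIL1* group. The difference was -0.13 on the log2 scale (-0.40 to 0.14), and exons of other annotated genes overlap 13.4% of its exonic length. *Rbm39*, a coactivator and splicing factor, was at 97.05 to 116 CPM and 103 to 110.4 CPM, a log2 fold change of -0.04 (-0.16 to 0.08). *Rbm3*, the cold-induced RNA-binding protein, was at 16.4 to 19.98 CPM and 16.8 to 24.5 CPM, 0.10 (-0.10 to 0.30), and 16.7% of its longest transcript has a near-identical copy elsewhere.

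Among the remaining *Rbm* genes the outermost changes were at low levels. *Rbm47* had 1.14 to 2.59 CPM in Control and 1.17 to 5.20 CPM in *FRAIL1* muscles, with a log2 fold change of 0.57 whose interval ran from -0.04 to 1.18 (adjusted p = 0.207). Its values within *FRAIL1* muscles differed more than the group means did, and without *FRAIL1* muscle 3 alone its adjusted p was 0.0476. *Rbm43* was at 3.62 to 6.02 CPM and 4.20 to 5.76 CPM, and *Rbm48* at 5.29 to 6.88 CPM and 4.93 to 6.11 CPM, with log2 fold changes of 0.22 and -0.18 and adjusted p of 0.310 and 0.203. The 34 tested *Rbm* genes had a median log2 fold change of 0.015, 19 above 0 and 15 below, and 4 had an unadjusted p under 0.05, of which *Rbm6*, *Rbm20* and *Rbm33* were lower and *Rbm4* higher. *Gm21992* overlaps 60.5% of the exonic length of *Rbm4*, and 14.1% of its longest transcript has a near-identical copy in *Rbm4b*.

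**Figure D2:**
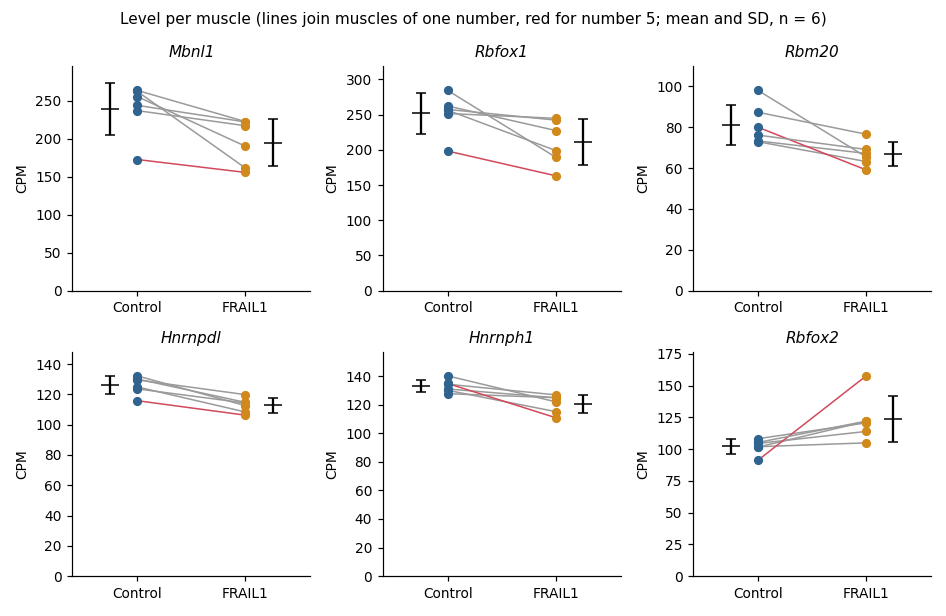
Level in CPM (vertical axes, from 0) of 6 splicing regulators in the 6 Control and 6 *FRAIL1* muscles, with lines joining muscles of 1 number (red for number 5) and bars for the mean and SD of each group. *Mbnl1*, *Rbfox1*, *Rbm20*, *Hnrnpdl* and *Hnrnph1* are lower at the *FRAIL1* end of each of the 6 lines and *Rbfox2* is higher, most of all in muscle 5, where it reached 158 CPM.

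Of the hnRNP genes 12 of 20 lay below 0 and 8 above, with a median log2 fold change of -0.05. An unadjusted p under 0.05 was found for 6 (30%, against 27.7% of all genes), all lower, *Hnrnpdl*, *Hnrnph1*, *Hnrnph3*, *Hnrnpul1*, *Hnrnpul2* and *Hnrnpa3*. *Hnrnpdl*, which regulates splicing and is mutated in a limb-girdle muscular dystrophy, was at 116 to 132 CPM in Control (median 127) and 106 to 119.8 CPM in *FRAIL1* muscles (median 113). Every pair was lower, by 0.11 to 0.23 on the log2 scale, and the groups overlapped through Control muscle 5 (116 CPM), which lay below *FRAIL1* muscle 3 (119.8 CPM). Its log2 fold change was -0.16 ± 0.0527 (SE; -0.27 to -0.05), with an adjusted p of 0.0714 without and 0.0491 with the block, and 0.0480 when both muscles numbered 5 were left out.

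*Hnrnph1*, which binds G-rich sequences, was the splicing regulator whose groups did not overlap, and was chosen for that, at 128 to 140.2 CPM in Control and 111 to 127 CPM in *FRAIL1* muscles. The groups of 1 gene of 75 were thus apart, against 4.88% of all genes (1.77% lower and 3.12% higher), and its log2 fold change of -0.14 (-0.25 to -0.03) had an adjusted p of 0.105, 0.0988 with the block and 0.031 in DESeq2. *Hnrnph3*, a low-level relative, was at 7.12 to 9.59 CPM and 5.83 to 7.61 CPM, lower in 6 of 6 pairs, -0.28 (-0.47 to -0.09), with an adjusted p of 0.0656 and 0.0222 in DESeq2. *Hnrnpa3* was at 24.5 to 32.3 CPM and 21.8 to 27.3 CPM, -0.20 (-0.36 to -0.03; adjusted p = 0.116), and near-identical copies elsewhere cover 28.9% of its longest transcript.

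The most abundant hnRNP mRNAs were near level. *Hnrnpa2b1*, which packages nascent RNA and binds transport signals, had the highest level of all splicing regulators per exonic length (96.1 CPM per kb), with 615 to 685 CPM in Control and 577 to 657 CPM in *FRAIL1* muscles. It was lower in all 6 pairs, with a log2 fold change of -0.08 (-0.20 to 0.05; adjusted p = 0.405). *Hnrnpab*, at 158 to 227 CPM and 166 to 219.8 CPM, differed by -0.02 on the log2 scale (-0.22 to 0.18), with 29.1% of its exonic length overlapped by *Phykpl*. *Hnrnpm* was at 162 to 189.9 CPM and 164 to 181 CPM, -0.06 (-0.17 to 0.06), with 14.7% overlapped by *March2*. On the higher side, *Hnrnpa0* was at 44.3 to 62.5 CPM and 49.9 to 92.2 CPM and *Hnrnpl* at 84.3 to 93.9 CPM and 86.3 to 103 CPM. Both were higher in 6 of 6 pairs, with adjusted p of 0.246 and 0.388, and without both muscles numbered 5 the log2 fold change of *Hnrnpa0* was 0.10 instead of 0.24.

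The SR protein genes were the family with the smallest differences, a median size of 0.05 on the log2 scale. All 10 tested had log2 fold changes between -0.10 and 0.10, none had an unadjusted p under 0.05 in edgeR, and none passed in DESeq2 or limma voom. *Srsf3*, which also promotes mRNA export, was at 35.0 to 46.9 CPM in Control (median 42.3) and 36.6 to 44.5 CPM in *FRAIL1* muscles (median 41.1). The *FRAIL1* range lay within that of Control, with a log2 fold change of -0.04 ± 0.0742 (SE; -0.19 to 0.12; adjusted p = 0.793). By pair the log2 ratios for numbers 1 to 6 were -0.16, -0.16, -0.15, -0.12, 0.35 and 0.06, so pair 5 went most strongly the other way. Of its longest transcript 28.5% has near-identical copies in which reads may map to more than 1 place. *Srsf5* was the most abundant SR mRNA per exonic length (32.4 CPM per kb), at 121 to 142 CPM and 123 to 134 CPM, -0.03 (-0.14 to 0.09), with near-identical copies over 23.6% of its longest transcript. *Srsf1*, the founding SR protein, was at 84.6 to 99.6 CPM and 86.8 to 105 CPM, 0.05 (-0.08 to 0.18), and *Srsf2* at 67.5 to 85.7 CPM and 66.6 to 81.2 CPM, -0.05 (-0.19 to 0.09), with 25.3% overlapped by other genes. *Srsf6*, at 67.0 to 76.7 CPM and 72.8 to 90.4 CPM, had a log2 fold change of 0.10 (-0.04 to 0.23), or 0.04 without both muscles numbered 5, of which the *FRAIL1* muscle was its highest value. *Srsf7* (33.5 to 41.5 CPM against 32.6 to 36.3 CPM) and *Srsf9* (12.2 to 15.5 CPM against 13.2 to 17.3 CPM) had log2 fold changes of -0.10 and 0.07.

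Among 10 tested genes for SR protein kinases and the SR protein importer 1 passed, where 6.28% of all genes did. With the mouse as block 2 of the 10 passed, where 14.1% of all genes did. *Srpk3*, a kinase of SR proteins expressed mainly in striated muscle and a target of MEF2 (chrX:73772608-73778925, protein coding), was at 42.5 to 55.0 CPM in Control and 52.1 to 109.8 CPM in *FRAIL1* muscles. It was higher in 6 of 6 pairs, with muscle 5 the highest and muscle 2 within the Control range. It rose by a log2 fold change of 0.66 ± 0.141 (SE; 0.35 to 0.96), with an adjusted p of 0.0208 and 0.0110 with the block. Without both muscles numbered 5 the log2 fold change was 0.51 (adjusted p = 0.0264), and leaving out each muscle in turn gave an adjusted p from 0.00404 to 0.0512, over 0.05 once, without *FRAIL1* muscle 1. The 9 other genes of this list, among them *Srpk1*, *Srpk2*, the *Clk* kinases and the SR protein importer *Tnpo3*, did not pass without the block, with log2 fold changes from -0.20 to 0.05. With the block 1 of them passed, the kinase gene *Dyrk1a*, named after its values were seen. It was at 72.6 to 87.2 CPM in Control and 65.5 to 77.8 CPM in *FRAIL1* muscles, lower in 6 of 6 pairs, with a log2 fold change of -0.20 ± 0.0661 (SE; -0.34 to -0.06) and an adjusted p of 0.0737 without and 0.0313 with the block, and 0.0362 in DESeq2.

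**Figure D3:**
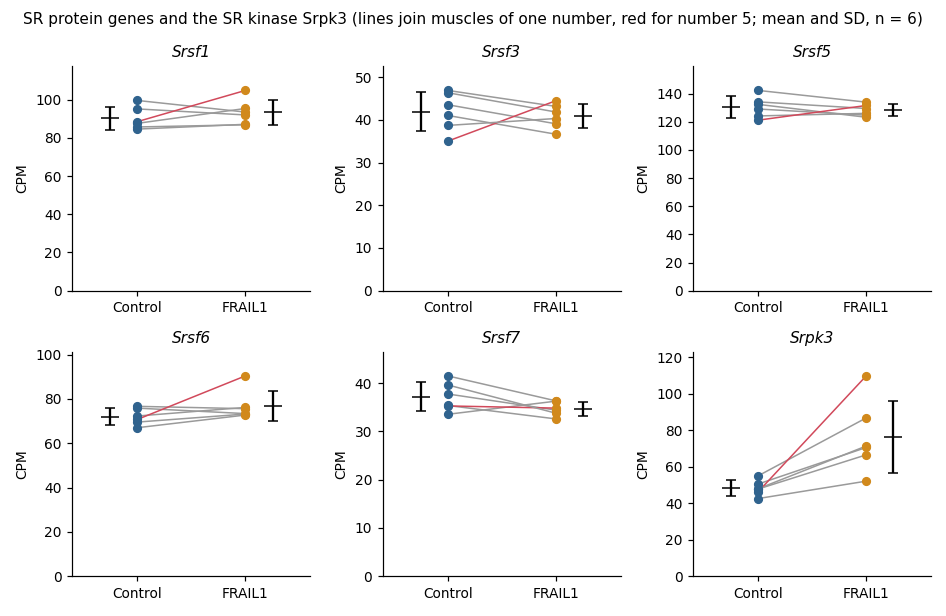
Level in CPM (vertical axes, from 0) of 5 SR protein genes and of the SR protein kinase gene *Srpk3* in each muscle, drawn as in the plot of muscle regulators. Control and *FRAIL1* values overlap for each of the 5 SR protein genes, with *Srsf6* in *FRAIL1* muscle 5 apart at 90.4 CPM. *Srpk3* lies at 42.5 to 55.0 CPM in Control and 52.1 to 109.8 CPM in *FRAIL1* muscles, a narrower overlap for its range.

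Of 76 tested core spliceosome genes 2 passed, where 6.28% of all genes did. *Prpf38a*, a protein of the spliceosomal B complex (chr4:108564867-108579336), rose from 11.2 to 13.5 CPM in Control to 13.8 to 15.7 CPM in *FRAIL1* muscles, with a log2 fold change of 0.23 (0.09 to 0.36; adjusted p = 0.0465), and lost the call in 10 of 12 fits that each left out 1 muscle. *Ddx23*, a helicase of the U5 particle (chr15:98645379-98662928), fell from 120.04 to 131 CPM to 85.7 to 115 CPM, a log2 fold change of -0.26 (-0.40 to -0.11; adjusted p = 0.0376), lost in 9 of 12. The adjusted p of *Prpf38a* was 0.0343 with the mouse as block, 0.0174 in DESeq2 and 0.0804 without both muscles numbered 5. For *Ddx23* these values were 0.0223, 0.00668 and 0.0350. With the mouse as block 6 of 76 passed, and 14.1% of all genes. Of 51 tested genes for other splicing regulators 0 passed in edgeR (6.28% of all genes), 9 had an unadjusted p under 0.05 (17.6%, against 27.7% of all genes), and 2 passed in DESeq2 (14.1% of all genes). With the block 1 passed (again 14.1% of all genes), the RNA helicase gene *Ddx5*, at 326 ± 22.04 CPM in Control and 279 ± 19.4 CPM in *FRAIL1* muscles (SD, n = 6), with an adjusted p of 0.0373. The median log2 fold changes of the lists were 0.002 (core) and -0.004 (other regulators), against 0.010 for all genes.

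Summed over all 83 genes, splicing regulators made up 4966 ± 165 CPM (SD, n = 6) in Control and 4797 ± 64.3 CPM in *FRAIL1* muscles, lower in 5 of 6 pairs. The MBNL sum went from 299 to 465 CPM in Control to 289.5 to 379.5 CPM and was lower in 6 of 6, and the hnRNP sum from 2228 to 2348 CPM to 2142 to 2253 CPM and was lower in 5 of 6. The SR protein sum (585 to 634 CPM and 583 to 668 CPM) was lower in 3 of 6, and the CELF sum (124 to 153 CPM and 138 to 147 CPM) in 4. Those of the RBFOX and RBM genes, at 291 to 388 CPM and 313 to 356 CPM and at 1166 to 1214 CPM and 1143 to 1223 CPM, were lower in 5 and 4 of 6.

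Pair by pair, 11 of 75 genes were lower in the *FRAIL1* muscle in all 6 pairs (14.7%, against 11.7% of all genes) and 5 were higher in all 6 (6.67%, against 11.5%). The first were *Hnrnpa2b1*, *Hnrnpdl*, *Hnrnph1*, *Hnrnph3*, *Hnrnpll*, *Hnrnpul1*, *Mbnl1*, *Rbfox1*, *Rbm6*, *Rbm20* and *Rbm33*, and the second *Hnrnpa0*, *Hnrnpl*, *Mbnl3*, *Rbfox2* and *Srsf11*. The pairs were unequal in size. *Mbnl1*, *Rbfox1* and *Rbm20* were each lowest relative to Control in pair 1, at -0.70, -0.59 and -0.58 on the log2 scale, and *Rbfox2* was highest in pair 5. *FRAIL1* muscle 5 held the highest of the 12 values for 24 of the 75 genes (32%) and the lowest for 14 (18.7%), against 23.3% and 23.3% of all genes, and Control muscle 5 held the lowest for 14 (10.1% of all genes).

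**Figure D4:**
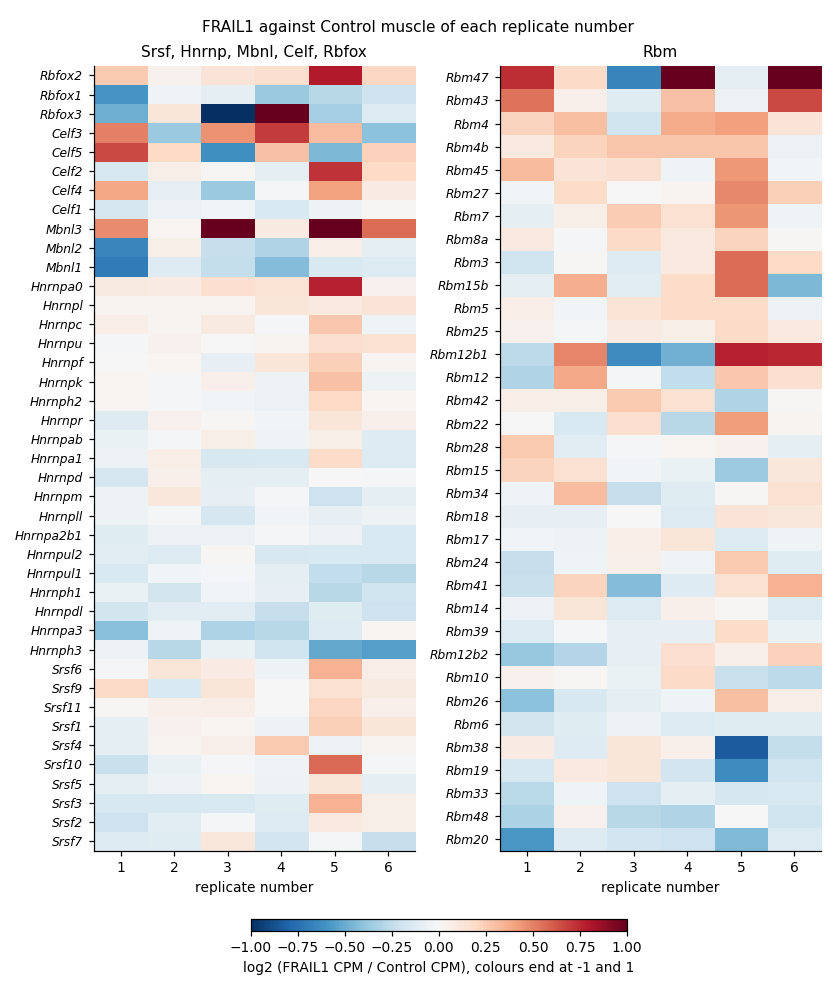
Log2 ratio of *FRAIL1* to Control CPM in each of the 6 pairs (columns, by replicate number) for the 75 tested splicing regulators (rows, in the order of the plot of changes), blue for lower and red for higher in *FRAIL1*, with colours ending at -1 and 1. *Rbm20*, *Mbnl1* and *Rbfox1* are blue in all 6 columns and darkest in column 1, and column 5 holds the most strongly coloured cells among *Srsf* genes.

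How firmly a gene was called depended on the model. *Rbm20* passed in 10 of 24 alternative fits, *Hnrnpdl* in 7, *Rbfox2* in 6, *Mbnl1* in 4 and *Rbfox1* in 3, while *Srsf3* and *Rbm24* passed in none. In the fits that left out 1 muscle the log2 fold change ran from -0.33 to -0.22 for *Rbm20*, from -0.37 to -0.24 for *Mbnl1*, from -0.31 to -0.19 for *Rbfox1* and from -0.19 to -0.15 for *Hnrnpdl*, so the direction stayed. For *Rbfox2* it ran from 0.19 to 0.31.

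**Figure D5:**
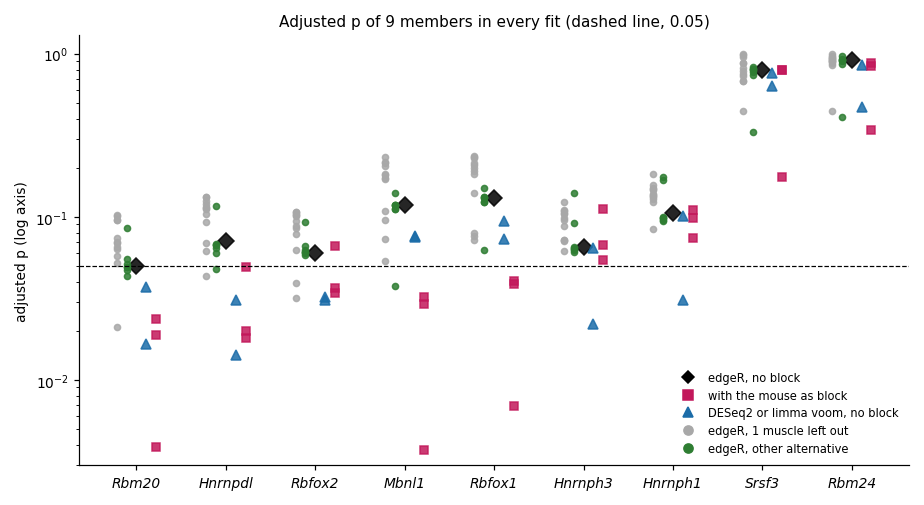
Adjusted p (vertical log axis, Benjamini-Hochberg over all genes tested) of 9 splicing regulators in each fit, with a black diamond for edgeR without a block and other symbols for the alternatives. Diamonds all lie above the dashed line at 0.05, *Rbm20* on it at 0.0501, and *Mbnl1* and *Rbfox1* drop below it in each fit with the mouse as block.

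The genes that could not be tested had few or no reads. *Rbm31y* and *Rbm46os* were at 0 in all 12 muscles. *Celf6*, *Srsf12*, *Rbm11*, *Rbm44*, *Rbm46* and the antisense RNA gene *Rbm3os* had 0 to 12 counts in every library. Per exonic length the levels after *Hnrnpa2b1* were those of *Hnrnpab* (69.5 CPM per kb), *Rbm38* (60.8), *Rbm24* (56.1) and *Rbfox1* (52.6), and of the 75 tested genes 15 had a mean of 100 CPM or more and 3 of less than 1 CPM. Since the counting is not stated to use strand, reads of a gene and of one that overlaps it cannot be told apart. For 24 of the 83 genes other annotated exons overlapped at least 5% of the exonic length, and for 14 near-identical copies covered at least 5% of the longest transcript.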

How the data were processed

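Per the labels and the methods, the authors trimmed reads of poly(A)+ RNA with Trimmomatic, aligned them to mm10 with STAR 2.7.8a and counted reads that mapped uniquely to a gene with featureCounts 2.0.1. The deposited values are raw counts for 27179 Gene IDs, and the strand setting is not given in the sources used here. Of these IDs 25275 matched a symbol in RefSeq's GRCm38.p6 table, and the other 1904 held 0.280% of the counts. Overlaps came from GENCODE vM21 exons, and near-identical copies (98% identity over 100 bases) from BLAST 2.17.0 with the longest transcript of each gene.

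Counts were filtered with filterByExpr, TMM-scaled and compared over all 12 muscles with edgeR 4.0.16 (robust quasi-likelihood test, R 4.3.3), with Benjamini-Hochberg adjustment over 15502 genes and a threshold of 0.05. CPM used TMM-scaled library sizes. P-values rest on how far the 6 muscles in each group differ. Within a group the least difference between libraries was a chi-square per degree of freedom of 14.5, so none was a copy. On simulated counts the test found 79.6% of genes changed by 1 and 44% of those changed by 0.5 on the log2 scale, with 4 false calls among 15173 genes.

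The design gives each mouse both plasmids, and the labels number each group 1 to 6. That a number marks a mouse was checked on deviations from group means, which correlated at 0.254, 0.162, 0.282, 0.263, 0.0547 and 0.185 for numbers 1 to 6 (mean between different numbers -0.0400). No label says that a number marks a mouse. The pairing of number 5, whose correlation was the lowest, thus rests on the shared number alone and is an assumption. Results with the mouse as block stand beside those whose call it changes.

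Alternatives were the block, other scalings and filters, DESeq2 1.42.0, limma 3.58.1 voom, a fit that was not robust, and muscles left out. Members, gene lists and alternatives were chosen with earlier results of these data known. Genes named are those called with or without the block, those whose groups do not overlap, all *Mbnl*, *Celf* and *Rbfox* genes, the 3 most abundant and the 2 highest and 2 lowest changes of the other families, and *Srsf3*, *Rbm24* and *Rbm3*; others were named after their values were seen. The protein and exon data of the study were not analysed here.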

Additional observations from a re-analysis of the deposited data

Results flagged for a closer look

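In 84 groups of 6 values (named genes and family sums) 8 had 1 muscle far from the others by Dixon's criterion, where chance gives about 4.2. Of the *FRAIL1* muscles, number 5 was far above the others for *Rbfox2* (158 CPM, others 105 to 122 CPM), *Rbm24* (231 CPM, others 178 to 195 CPM) and *Srsf6* (90.4 CPM, others 72.8 to 76.2 CPM). Control muscle 5 was far below the others for *Mbnl1* (173 CPM, others 237 to 264 CPM), *Celf2* (39.9 CPM, others 50.02 to 55.4 CPM) and the summed *Rbfox* genes (291 CPM, others 355 to 388 CPM). *Rbm24* in Control muscle 1 (215 CPM, others 188 to 196 CPM) and the summed *Rbm* genes in *FRAIL1* muscle 3 (1223 CPM, others 1143 to 1168 CPM) were far above. Thus 6 of the 8 came from muscles numbered 5.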

How the results depend on the processing

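The count of splicing regulators past the threshold was 0 in edgeR without a block, 4 with the replicate block, 6 in DESeq2, 5 in DESeq2 with the block and 3 in limma voom. It was 1, *Rbm20*, under each other scaling (upper quartile, DESeq2's size factors, and TMM computed on neither mitochondrial nor top genes) and under a minimum of 10 counts in every muscle, and 0 without a filter and in the fit that was not robust. Without both muscles numbered 5 it was 2, or 6 with the block. With 1 muscle left out it ran from 0 to 4, the 4 without *FRAIL1* muscle 3 (13.5% of all genes passed there) and 1 without *FRAIL1* muscle 2. Over all genes the count was 974, and 2186 with the block, 2154 in DESeq2, 2829 in DESeq2 with the block, 1836 in limma voom, 2305 with the block and without muscles numbered 5, and 364 to 2110 with 1 muscle left out (the lowest without *FRAIL1* muscle 1, the highest without *FRAIL1* muscle 3). For the core spliceosome it was 2, and 6 with the block, 7 in DESeq2, 6 in DESeq2 with the block, 6 in limma voom, 1 with DESeq2's size factors, 1 without a filter, 1 without muscles numbered 5, 6 when the block was added, and 0 to 6 with 1 muscle left out. For SR protein kinases it was 1, and 2 with the block and in DESeq2 (with and without the block) and limma voom, 3 with the block and without muscles numbered 5, and 0 to 2 with 1 muscle left out. For other splicing regulators it was 0, and 1 with the block, with DESeq2's size factors, with upper-quartile scaling and without muscles numbered 5, 2 in DESeq2 (both fits) and limma voom, 3 with the block and without muscles numbered 5, and 0 to 2 with 1 muscle left out.

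Of 840 fits of 35 named genes over 24 alternatives, 796 kept direction and side of the threshold, 34 newly passed it, and 10 changed direction, all of genes far from the threshold. *Rbm3* was at -0.01 in both fits, blocked or not, that left out the muscles numbered 5. With 1 muscle left out the log2 fold change ran from -0.05 to 0.28 for *Celf5*, -0.08 to 0.03 for *Hnrnpab* and -0.07 to 0.01 for *Rbm24*. The cause of these differences between fits was not tested. Family medians moved by less than the spread between muscles under every alternative. With 6 muscles a group, changes of 0.5 on the log2 scale were found less often than not on simulated counts, so smaller changes of single genes may be missed. The 200 changed genes of that simulation were drawn from all genes tested. They were 200 of 15371 genes, whereas 974 of 15502 passed in the muscles. With fewer changed genes the adjusted threshold is stricter, so the shares found may not carry over to these data. The share found was not computed for splicing regulators, whose median SE was 0.072 against 0.114 for all genes.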
